A study of Homo sapiens with 16 samples.

Results

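MED1 peaks were described at the loci of 6 transcription factor genes of epithelial cells, EHF, ELF3, GRHL3, GRHL2, KLF5 and OVOL1. A peak belonged to a locus where it overlapped a fixed hg19 window by at least 1 bp. The windows were chromosome 11, 34.59 to 34.73 Mb (EHF), chromosome 1, 201.93 to 202.03 Mb (ELF3), chromosome 1, 24.60 to 24.74 Mb (GRHL3), chromosome 8, 102.45 to 102.73 Mb (GRHL2), chromosome 13, 73.58 to 74.20 Mb (KLF5), and chromosome 11, 65.51 to 65.60 Mb (OVOL1). They held 31 of the 3464 peaks of 6 lists. No expression was measured, so whether these genes were transcribed was not tested.

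The peaks came from ChIP-seq of MED1, with 8 MED1 libraries and 8 inputs, in HCT116, a line from a human colorectal carcinoma. In cells edited with CRISPR/Cas9 (OsTir1+/-;Med14-AID+/+, called MED14-AID here), the Mediator subunit MED14 carries a degron, so that auxin with the plant protein OsTIR1 targets it for degradation. The 4 MED14-AID groups received 500 µM auxin for 3 h and then Nutlin-3a for 1 h, auxin alone, water for 3 h and then Nutlin-3a for 1 h, or water alone, with 1 MED1 library and 1 peak list each. The 2 groups of unedited wild-type (WT) cells received Nutlin-3a or DMSO for 1 h, and each has 1 joint list of 2 MED1 libraries. All 4 MED14-AID groups carry the degron and OsTIR1. The labels give no DMSO hour for MED14-AID cells, no Nutlin-3a dose, and do not say how many clones were used. In the deposited list with water alone the peak names say Vehicle, which was taken to be the water of the labels. Nutlin-3a keeps MDM2 from binding p53, which stabilises p53 and switches on its signalling.

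MED1 is a subunit of Mediator, the complex that connects enhancer-bound transcription factors with RNA polymerase II, and clusters of strong MED1 binding commonly mark highly active enhancers. EHF and ELF3 belong to the epithelium-specific branch of the ETS family. GRHL2 and GRHL3 are grainyhead-like factors that act on genes of cell junctions and the epithelial barrier. KLF5 is a Krüppel-like zinc finger factor of proliferating epithelium, including that of the intestinal crypt, and OVOL1 is a zinc finger repressor known from epidermal differentiation.

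The lists held 66 peaks (auxin and Nutlin-3a), 53 (auxin), 522 (water and Nutlin-3a), 463 (water), 1254 (WT Nutlin-3a) and 1106 (WT DMSO). Read counts are not part of the lists, so library depth is unknown and could set how many peaks were listed. With 1 list per condition there was no replicate spread to measure a difference against, and no test was made. The fold is the authors' enrichment of a peak over background, used to describe peaks within a list, and ranks are by −log10 q. Folds of different lists are given side by side with the list's median fold, which was 5.34, 5.18, 4.25, 4.38, 3.41 and 3.19 in the same order of lists. Across the series, 12 regions were listed with Nutlin-3a only in WT cells and without Nutlin-3a only under auxin (0.758% of 1584 merged regions), so presence there followed Nutlin-3a in WT cells and its absence under auxin. Only regions listed with auxin alone of the auxin lists can show this, and 20 of the 53 auxin peaks overlapped no peak with auxin and Nutlin-3a. The share of 0.758% therefore understates how frequent the pattern was among such regions. Regions listed with Nutlin-3a only both in WT cells and under auxin were not counted across the series. None of the 12 regions lay in the windows. Whether the labels of the auxin lists are exchanged was not tested, and every value given for auxin with or without Nutlin-3a rests on those labels.

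Counted over the 6 lists, so that 1 site can count several times, MED1 peaks of the windows lay mainly at EHF. EHF held 19 of the 31 peaks, GRHL3 held 7, KLF5 held 3 and ELF3 held 2, while GRHL2 and OVOL1 held 0 in all 6 lists. By list the windows held 1 peak with auxin and Nutlin-3a (1.52% of that list), 0 with auxin, 5 with water and Nutlin-3a (0.958%), 6 with water (1.30%), 11 in WT Nutlin-3a (0.877%) and 8 in WT DMSO (0.723%). Merging overlapping peaks of the 6 lists gave 12 regions, 6 of them at EHF. Of the 12 regions, 4 were in all 4 lists without auxin, 3 at EHF and 1 at GRHL3, where 18.2% of all 1584 merged regions were. Both WT lists held 7 of the 12, against 48.9% of all merged regions.

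**Figure D1:**
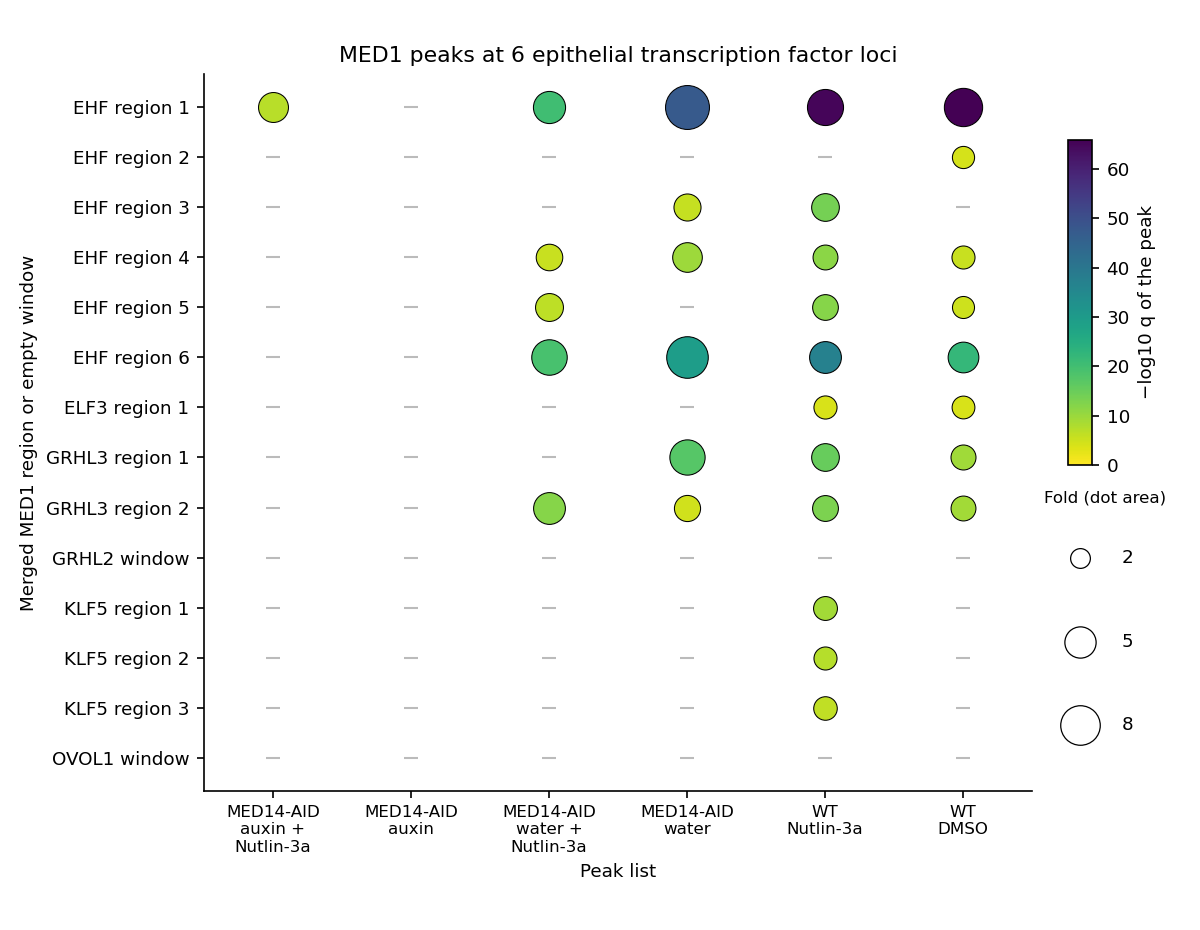
Each row is a merged MED1 region or a window with no peak, and each column a peak list. Dot area gives the authors' fold and colour the −log10 q of the peak, and a dash means not listed. EHF region 1 is present in 5 of 6 lists, and the 3 KLF5 regions only in WT Nutlin-3a.

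The 6 EHF regions, numbered along the chromosome, spanned 86.8 kb of the 140 kb window. No hg19 gene annotation was used here, so no peak was assigned to a promoter, exon or intron. Regions 1 and 6 stood above the list median in every list without auxin, and in regions 2 to 5 the fold was 0.78 to 1.15 times the list median. Per list, EHF held 1 peak with auxin and Nutlin-3a, 0 with auxin, 4 with water and Nutlin-3a, 4 with water, 5 in WT Nutlin-3a and 5 in WT DMSO. Each EHF peak of the WT lists had 4 other peaks within 100 kb. At least 4 others lay within that distance for 37.2% of all WT Nutlin-3a peaks and 34.3% of all WT DMSO peaks. Those shares include peaks of larger clusters. Having 4 or more such neighbours was thus common among the peaks of these lists.

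**Figure D2:**
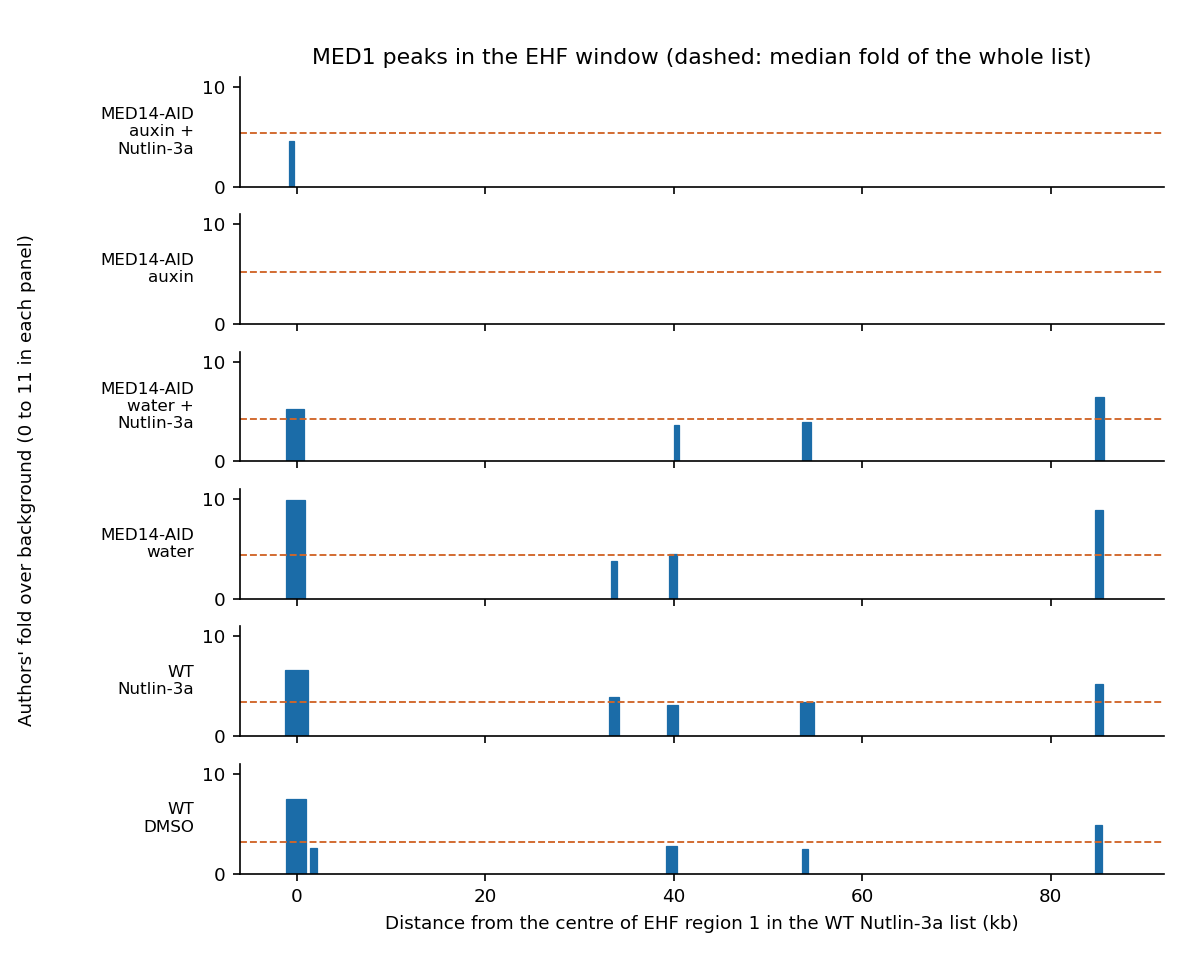
Bars show MED1 peaks in the EHF window, drawn at their width in kb and with the authors' fold as height, by distance from the centre of EHF region 1. The dashed line is the median fold of all peaks of that list. The outer regions exceed it in all 4 lists without auxin, and the auxin lists show a single peak, of fold 4.59, with Nutlin-3a.

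EHF region 1 (chromosome 11, 34620674 to 34623034) was the widest region of the windows. Its fold was 4.59 with auxin and Nutlin-3a, 5.29 with water and Nutlin-3a, 9.88 with water, 6.67 in WT Nutlin-3a and 7.50 in WT DMSO, and it was not listed with auxin alone. By −log10 q it ranked 55 of 66 with auxin and Nutlin-3a, 105 of 522 with water and Nutlin-3a, 17 of 463 with water, 76 of 1254 in WT Nutlin-3a and 39 of 1106 in WT DMSO. It thus stood among the strongest peaks with water alone and in both WT lists, lower with water and Nutlin-3a, and near the bottom of the list with auxin and Nutlin-3a. The −log10 q was 20.3 with water and Nutlin-3a and 47.6 with water. The peak was 515 bp wide with auxin and Nutlin-3a, 1935 bp with water and Nutlin-3a, 1983 bp with water, 2361 bp in WT Nutlin-3a and 2140 bp in WT DMSO. The shortest peak any list holds is 500 bp, so the peak with auxin and Nutlin-3a was close to that floor.

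Summits within EHF region 1 fell at 2 places. They lay at 34621234 with auxin and Nutlin-3a, 34621271 with water and Nutlin-3a, 34622198 with water, 34621224 in WT Nutlin-3a and 34621383 in WT DMSO. The water summit was 815 bp from the nearest other one, while those of the other 3 lists without auxin lay within 159 bp. Over the 4 lists without auxin the summits spread over 974 bp, and 12 of the 288 regions present in those lists (4.17%) spread as far or farther. The median spread was 196 bp. EHF region 1 was wider than the list median in each of these 4 lists, where the medians lay between 760.5 and 833 bp, and the part of width in this spread was not tested.

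EHF region 6 (chromosome 11, 34706522 to 34707442) lay 83.5 kb farther along. Its fold was 6.45 with water and Nutlin-3a, 8.85 with water, 5.18 in WT Nutlin-3a and 4.83 in WT DMSO, and it was in neither auxin list. By −log10 q it ranked 115 of 522, 46 of 463, 164 of 1254 and 209 of 1106 in the same order. Region 6 was thus within the first 22.0% of each list that held it. With water and Nutlin-3a its fold exceeded that of region 1, and in the other 3 lists region 1 had the higher fold. Its width was 876, 900, 859 and 709 bp, and its 4 summits lay within 89 bp of each other. In 83.3% of the 288 regions the summits spread at least as far.

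**Figure D3:**
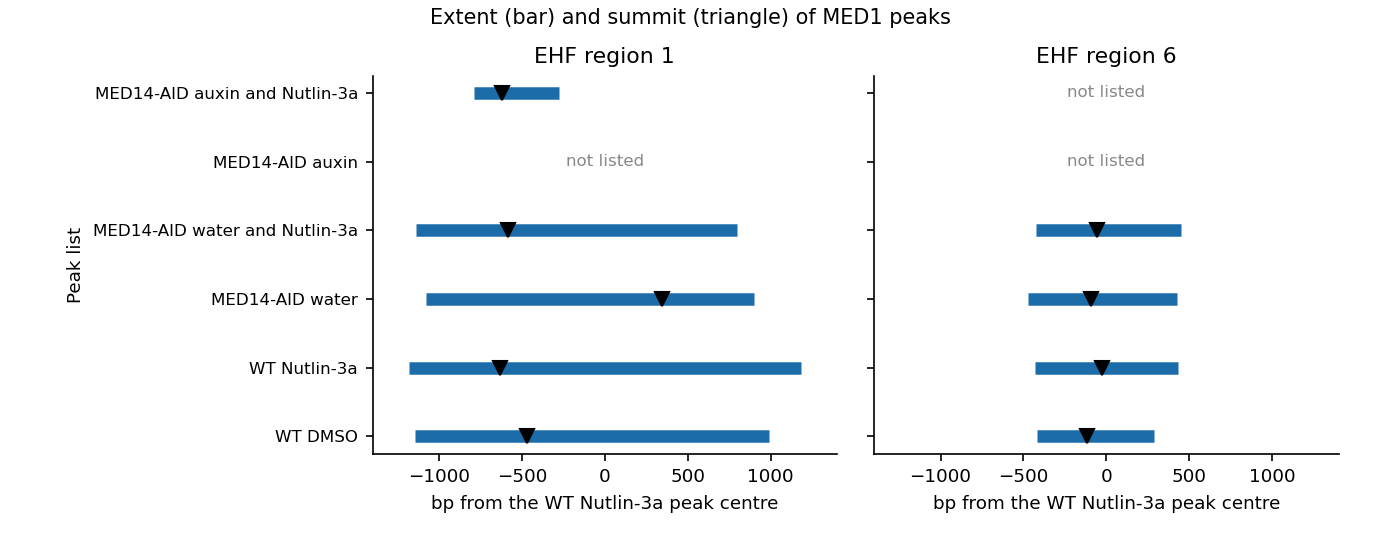
Bars give the extent and triangles the summit of the MED1 peak at EHF regions 1 and 6 in each list, in bp from the centre of the WT Nutlin-3a peak. In region 1 the water summit lies apart from the other 4, and in region 6 all 4 summits coincide within 89 bp.

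EHF region 4 (chromosome 11, 34661059 to 34662452) was also in the 4 lists without auxin, at lower strength. Its fold was 3.61 with water and Nutlin-3a, 4.50 with water, 3.17 in WT Nutlin-3a and 2.72 in WT DMSO. That was above the list median with water alone and below it in the other 3 lists. Its summits lay at 34662173, 34662044, 34662119 and 34661339 in the same order, so here the WT DMSO summit was the one apart. The spread of 834 bp was reached by 6.25% of the 288 regions.

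EHF region 3 (chromosome 11, 34655028 to 34656026) was listed with opposite presence in the 2 lines. It had a fold of 3.75 and a −log10 q of 5.83 with water, and a fold of 3.93 and a −log10 q of 13.9 in WT Nutlin-3a. It was absent with water and Nutlin-3a and from WT DMSO. Of all 1584 merged regions, 7 (0.442%) had this pattern of presence. Only regions listed with water and not with water and Nutlin-3a can show it. Of the 463 water peaks, 104 overlapped no peak with water and Nutlin-3a. The share of 0.442% therefore understates how frequent the pattern was among such regions. The 2 summits were 50 bp apart.

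EHF region 5 (chromosome 11, 34675259 to 34676719) had folds of 3.99 with water and Nutlin-3a, 3.39 in WT Nutlin-3a and 2.49 in WT DMSO. With water alone it was not listed. EHF region 2 (chromosome 11, 34623312 to 34623989) was in WT DMSO only, with a fold of 2.52 and a −log10 q of 4.20, rank 954 of 1106. It lay 277 bp beyond the end of the WT Nutlin-3a peak of region 1, which extended farther in its direction than the DMSO peak did, so a gap of 1 kb counted as shared would remove the difference.

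ELF3 held 1 region (chromosome 1, 201987561 to 201988334), in the WT lists only. Its fold was 2.74 in WT Nutlin-3a and 2.66 in WT DMSO, and its −log10 q was 3.94 and 3.99. It was among the weakest peaks of both lists, rank 1200 of 1254 and rank 974 of 1106 by −log10 q. The widths were 774 and 625 bp and the summits 196 bp apart. No MED14-AID list held a peak in the ELF3 window. A region in both WT lists and no other was frequent in the series (22.0% of all merged regions).

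GRHL3 held 2 regions 41.9 kb apart, each in both WT lists and in at least 1 water list. GRHL3 region 1 (chromosome 1, 24648187 to 24649211) had a fold of 6.37 with water, 3.93 in WT Nutlin-3a and 3.20 in WT DMSO, and was absent with water and Nutlin-3a. It ranked 97 of 463, 455 of 1254 and 556 of 1106 by −log10 q. The peak that was missing with water and Nutlin-3a, though listed in WT Nutlin-3a, thus stood within the first 21.0% of the water list. Of all 463 water peaks, 22.5% overlapped no peak with water and Nutlin-3a. The share among water peaks of similar rank was not counted. Its summit lay at 24648507 in both WT lists, to the base pair, and at 24648682 with water.

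GRHL3 region 2 (chromosome 1, 24691158 to 24692612) was in all 4 lists without auxin. Its fold was 5.18 with water and Nutlin-3a, 3.50 with water, 3.42 in WT Nutlin-3a and 3.17 in WT DMSO. It ranked 218 of 522, 407 of 463, 542 of 1254 and 563 of 1106 by −log10 q. In MED14-AID cells the GRHL3 regions thus differed in order. With water, region 1 had the higher fold, and with water and Nutlin-3a only region 2 was listed. In the WT lists both regions stood between rank 455 and rank 563. The widths of region 2 were 1032, 519, 1109 and 1286 bp, and its summits spread over 432 bp, a spread reached by 19.8% of the 288 regions.

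GRHL2, the other grainyhead-like gene, had no peak in its 280 kb window in any list. The nearest peaks were 568.7 kb below the window in WT Nutlin-3a (fold 2.25) and 936.7 kb above it in both WT lists (fold 2.70 in Nutlin-3a and 2.56 in DMSO). In MED14-AID cells the nearest lay 1088.4 kb above with water and Nutlin-3a and 1088.3 kb above with water. Weaker binding than the lists' limit is not seen here. The lowest −log10 q of a list was between 1.58 and 2.76.

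The 620 kb KLF5 window, the longest of the 6, held 3 peaks, all of them in WT Nutlin-3a. KLF5 region 1 (chromosome 13, 73664294 to 73664911) had a fold of 2.92 and a −log10 q of 9.11. KLF5 region 2 (chromosome 13, 73784487 to 73785011) had 2.72 and 7.36, and KLF5 region 3 (chromosome 13, 73995518 to 73996035) had 2.84 and 6.42. These peaks were low and short, with ranks 783, 907 and 993 of 1254 by −log10 q and widths of 618, 525 and 518 bp, against a list median of 818 bp. They were 119.6 kb and 210.5 kb apart. The WT DMSO list held no peak in the window, its nearest peak being 23710 kb away. Its lowest −log10 q was 1.58, which need not be its limit at this locus. KLF5 regions 2 and 3 were also close to 500 bp, the shortest peak any list holds. Whether WT DMSO had weaker or narrower binding here that went unlisted was not tested. Chromosome 13 held 17 peaks in WT Nutlin-3a, these 3 included, and 15 in WT DMSO. A presence in WT Nutlin-3a alone was a common pattern, at 24.2% of all merged regions.

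OVOL1 had no peak in its 90 kb window. In both WT lists the nearest peak lay 66.6 kb above the window, with a fold of 2.98 in Nutlin-3a and 3.53 in DMSO. The member peak closest to a window edge was EHF region 6, 22.6 kb inside. The closest peak outside any window was on chromosome 1, 24592900 to 24593601, 6.4 kb below the GRHL3 window, and was listed in WT Nutlin-3a and in no other list (fold 4.06, −log10 q 14.6).

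**Figure D4:**
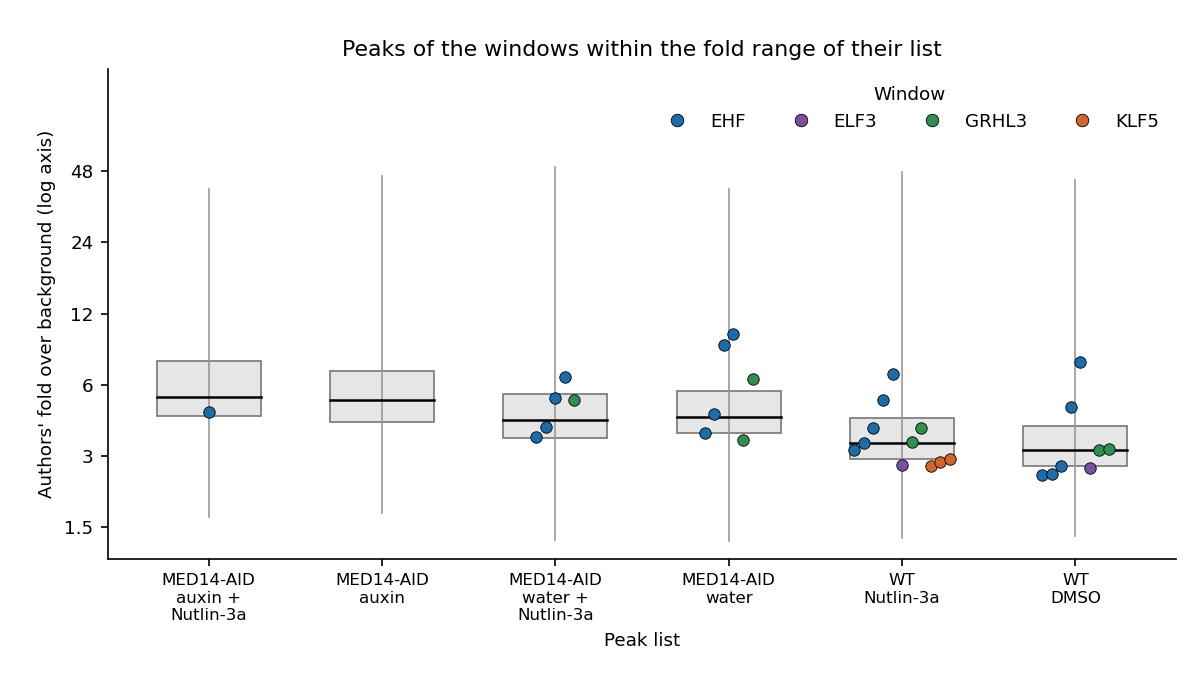
Points are the MED1 peaks of the windows, coloured by window, on a log axis of the authors' fold. Boxes give the quartiles and median of all peaks of the list, and the thin line its full range. The points above the box are EHF region 6 in the 4 lists without auxin, EHF region 1 in 3 of these (not with water and Nutlin-3a), and GRHL3 region 1 with water. The KLF5 and ELF3 points lie below the median line.

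As a set, the windows' peaks had a median fold near that of their lists in WT cells, 3.39 against 3.41 for all peaks in Nutlin-3a and 2.94 against 3.19 in DMSO. In MED14-AID cells the medians were 5.18 against 4.25 with water and Nutlin-3a and 5.44 against 4.38 with water. The number of window peaks at or above the median fold of the list was 3 of 5 with water and Nutlin-3a, 4 of 6 with water, 5 of 11 in WT Nutlin-3a and 3 of 8 in WT DMSO. The peaks of the windows covered 515 bp with auxin and Nutlin-3a, 5305 bp with water and Nutlin-3a, 5638 bp with water, 11446 bp in WT Nutlin-3a and 7939 bp in WT DMSO. That was 1.05%, 1.02%, 1.21%, 0.840% and 0.694% of the length covered by each list. Shares of peaks below have exact Clopper-Pearson 95% intervals, which cover the counting of peaks only. With so few peaks the intervals are wide. That one contains the share of the whole list therefore does not show that the windows were like the list, and no test of this was made.

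For MED14 depletion, the lists with auxin were compared with those with water. Without Nutlin-3a, 6 of the 6 water peaks of the windows overlapped no auxin peak (100%, exact interval 54.1 to 100%), where 90.5% of all 463 water peaks overlapped none. With Nutlin-3a, 4 of 5 overlapped none (80.0%, 28.4 to 99.5%), where 91.0% of all 522 did. The peak listed in both was EHF region 1. Both intervals contain the share over the whole list. EHF region 1 had 16 stronger peaks by −log10 q in the water list, of which 12 were also in the auxin list, and was itself absent there. EHF region 6 had 45 stronger water peaks, 21 of which were in the auxin list. With water and Nutlin-3a, 31 of the 104 peaks stronger than EHF region 1 were in the matching auxin list, and region 1 ranked 32 among the 47 peaks found in both.

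Of the 288 regions in all 4 lists without auxin, 244 were in no auxin list. Another 12 were, of the auxin lists, in that with Nutlin-3a only. These 12 are 0.758% of all 1584 merged regions, a share that understates the pattern, since only the 288 could show it. EHF region 1 was one of the 12. Its −log10 q with auxin and Nutlin-3a, 7.15, ranked 10 of those 12, whose median was 9.12. Its presence with auxin and Nutlin-3a and absence with auxin alone therefore rest on 1 weak peak, in 1 library each, and would be turned round if the labels of the auxin lists were exchanged. Of all 66 peaks with auxin and Nutlin-3a, 48.5% overlapped no peak with auxin alone.

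For p53 induction, the Nutlin-3a lists were compared with those without it. In WT cells, 4 of 11 Nutlin-3a peaks of the windows overlapped no DMSO peak (36.4%, 10.9 to 69.2%), where 35.0% of all 1254 did. They were EHF region 3 and the 3 KLF5 regions. Of the 439 WT Nutlin-3a peaks absent from DMSO, 48 had a −log10 q as high as EHF region 3 or higher, and 156, 221 and 277 reached that of the 3 KLF5 regions. The median of those 439 was 7.37, so EHF region 3 and KLF5 region 1 stood above it and KLF5 regions 2 and 3 below it. In the other direction, 1 of 8 DMSO peaks, EHF region 2, overlapped no Nutlin-3a peak (exact interval 0.316 to 52.7%), where 26.5% of all 1106 did. In MED14-AID cells with water, 1 of 5 Nutlin-3a peaks, EHF region 5, was absent without Nutlin-3a (20.0%, 0.505 to 71.6%), where 31.2% of the list was. There 2 of 6 water peaks, EHF region 3 and GRHL3 region 1, were absent with Nutlin-3a (33.3%, 4.33 to 77.7%), where 22.5% of the list was. Each of these 4 intervals contains the share of its whole list, and no region was listed with Nutlin-3a only in both lines.

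The MED14-AID line without auxin was also set beside WT cells. Of the 5 window peaks with water and Nutlin-3a, 5 were in WT Nutlin-3a (100%, 47.8 to 100%), where 86.8% of the list was, and 5 of 6 water peaks were in WT DMSO (83.3%, 35.9 to 99.6%), where 85.1% was. The exception was EHF region 3. In reverse, 5 of 11 WT Nutlin-3a peaks were listed with water and Nutlin-3a (45.5%, 16.7 to 76.6%) and 5 of 8 WT DMSO peaks in the water list (62.5%, 24.5 to 91.5%), where 33.2% and 33.3% of the WT lists were. All 4 intervals contain the share of the whole list. The WT peaks missing from both water lists were EHF region 2, ELF3 region 1 and the 3 KLF5 regions, with folds of 2.52 to 2.92. Line, mock treatment and number of libraries differ together and cannot be told apart.

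**Figure D5:**
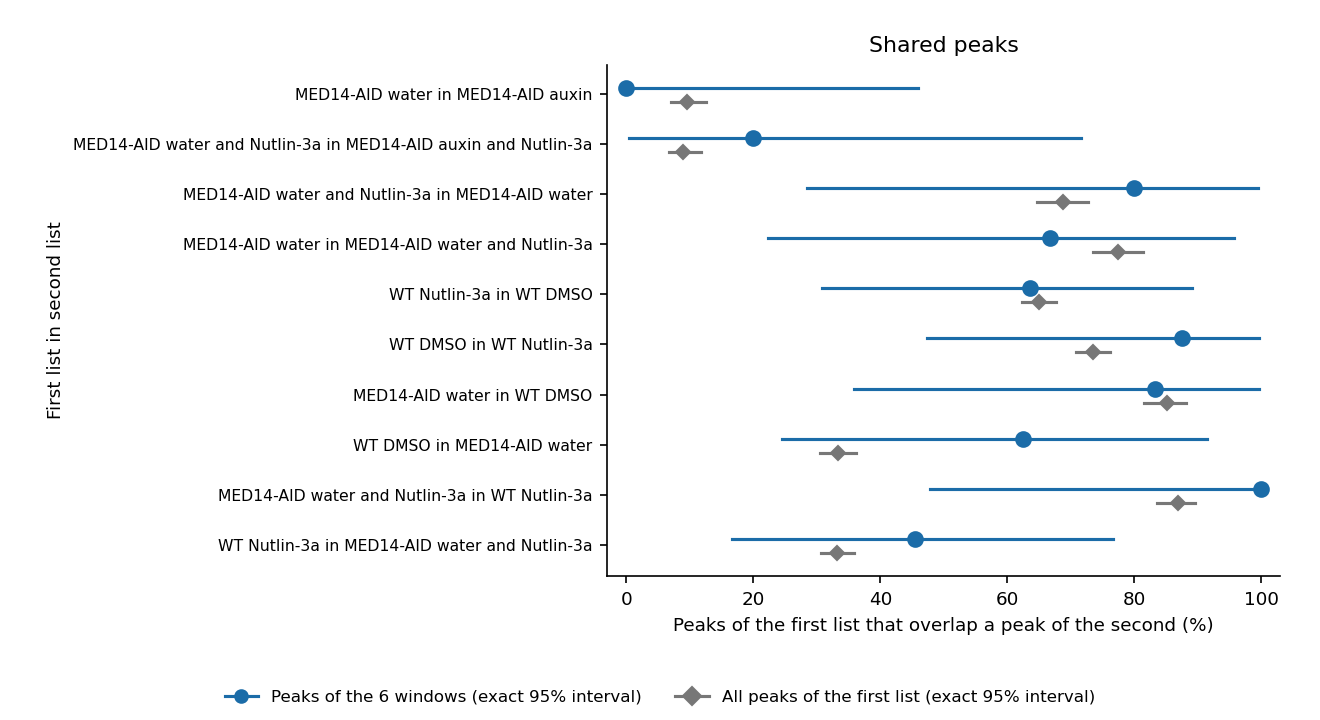
Circles give the share of window peaks of the first list that overlap a peak of the second by at least 1 bp, and diamonds the same share over all peaks of the first list, both in percent with exact 95% intervals. Each interval of the windows contains the share of the whole list, including 0 of 6 water peaks with auxin. The intervals of the windows are wide because they rest on few peaks.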

How the data were processed

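The authors used the aligner Bowtie (0.12.9), the build hg19 and the peak caller MACS2 (2.1.2), as the submitters' processing notes record without settings. Each WT list is a joint list of both libraries, per the labels. The deposited fold enrichment is a ratio over background. The deposited −log10 q was used, and the column of p-values was not. In all 3464 peaks the deposited score was the integer part of 10 times that value. Coordinates are 1-based.

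Here, peaks were matched to the windows and to each other by an overlap of at least 1 bp, with pandas 2.3.3 and numpy 2.4.6 under Python 3.11.15, intervals came from scipy 1.17.1, and figures were drawn with matplotlib 3.10.9. A region's value in a list is that of its peak. For 14 ordered pairs of lists, the overlap counts were checked with bedtools 2.31.1 and 0 differed. Tested on simulated data, in which 300 of the 1106 WT DMSO peaks were copied, the code recovered 300 and also called 1 other peak. The copies were shifted by less than the width of the shortest peak, so each had to overlap its source. The simulation therefore checks the code only, and not how well real lists match.

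The members and lists were chosen with earlier results of these data known. Values in every list are given for each window's highest region, regions in an auxin list or in all 4 lists without auxin, and regions in 1 WT list at or above its median fold. The other regions were named after their values were seen. Alternatives were summits inside the window, −log10 q of at least 10, stitching at 12.5 kb, wider windows (50 kb), leaving out KLF5, 50% reciprocal overlap and a 1 kb gap. Other epithelial genes, cell type markers and peak sequences are not analysed here, since no hg19 genome or annotation was used.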

Additional observations from a re-analysis of the deposited data

Results flagged for a closer look

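EHF region 3 was picked out because Nutlin-3a went with opposite presence in the 2 lines. In MED14-AID cells it was listed with water alone (fold 3.75) and not with water and Nutlin-3a, and in WT cells it was listed with Nutlin-3a (fold 3.93) and not with DMSO. Each presence or absence comes from 1 list, the difference between the lines was not tested, and neither auxin list held the region.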

How the results depend on the processing

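Of 95 values recomputed under other settings, 79 stayed within 1.5 times (counts), their exact 95% interval (shares) or the interval of the median (folds), and 16 did not. The intervals are wide, since the windows held at most 11 peaks per list, so a value within them was not necessarily stable. With −log10 q of at least 10, the median fold rose from 5.44 to 8.85 with water and from 2.94 to 6.17 in WT DMSO. It rose less in WT Nutlin-3a (3.39 to 3.93) and with water and Nutlin-3a (5.18 to 5.29). At −log10 q of at least 10 the windows held 0 peaks with auxin and Nutlin-3a, 3 with water and Nutlin-3a, 3 with water, 7 in WT Nutlin-3a and 2 in WT DMSO, fewer by construction. With that limit in both lists, 28.6% of WT Nutlin-3a peaks were shared with DMSO, 100% of DMSO peaks with Nutlin-3a, 100% of DMSO peaks with water, and 0% of the peaks with water and Nutlin-3a with the matching auxin list. With the limit on the first list only, 100% of DMSO peaks were in WT Nutlin-3a, 100% in the water list, 100% of peaks with water and Nutlin-3a were in the water list, and 100% of water peaks were in WT DMSO. With a 1 kb gap, 100% of DMSO peaks were in WT Nutlin-3a, since EHF region 2 then counted as shared. With 50% reciprocal overlap, 0% of the peaks with auxin and Nutlin-3a matched the list of water plus Nutlin-3a, and 0% in reverse, because the 515 bp auxin peak covers under 50% of the 1935 bp water peak. Summits inside the window, stitching, wider windows and leaving out KLF5 moved no value past these limits. Leaving out KLF5 still raised the share of WT Nutlin-3a peaks found in DMSO from 63.6% to 87.5%, within an interval of 30.8 to 89.1%. The share found with water and Nutlin-3a rose from 45.5% to 62.5%. The KLF5 regions thus weighed on the comparison of the WT lists. No paired analysis was possible because both replicates of a WT condition share 1 joint list, which also kept any replicate from being left out. For the remaining shifts the cause was not tested. The lists give no depth, and whether a position missing from a list has weak binding below its limit was not tested.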
